A study of Homo sapiens with 8 samples.

Results

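The 44 genes described here act in the G2 phase and in mitosis. They were listed by name, and a probe belonged to a gene when its single symbol in the platform annotation was that gene's symbol or an older alias. The 44 genes had 57 such probes among the 31741 probes of the array, and they are 44 of the 18336 genes with a probe of their own. In 34 genes 1 probe carried the measurement, and in the other 10 genes the probe with the highest mean over all arrays stands for the gene. PTTG1 was dim in all 4 groups, with a normalized intensity under 64, a limit used only as a description. KIF15 was left out by the selection, since its values look like a missing spot.

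The study treated 2 human liver cancer lines, PLC/PRF/5 (PLC5 here) and HepG2, with GSK343, a small-molecule inhibitor of EZH2, the histone methyltransferase of Polycomb repressive complexes. The 4 groups were PLC5 cells given 10 µM GSK343, control PLC5 cells, HepG2 cells given 10 µM GSK343 and control HepG2 cells, each measured on 2 one-colour Cy5 arrays of total RNA. All groups grew in medium with serum, and whether the controls received the solvent is not stated. Exposure lasted 16 h by the sample titles but 6 h by the treatment protocol. The labels name no separate cultures behind the 2 arrays of a group, so p-values measure the spread between these arrays, which may be technical. Both lines are established lines, so each group is a model of 1 tumour cell population.

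Cells pass from G2 into mitosis when CDK1, bound to its cyclins, becomes active. The kinases PLK1, AURKA and AURKB, the kinetochore and the spindle motors then align and part the chromosomes, and the anaphase-promoting complex ends mitosis by marking cyclins and securin for destruction. Many of these genes are transcribed together late in the cell cycle, under FOXM1, MYBL2 and the MuvB core, so their summed RNA is high in populations that divide. In bulk RNA, fewer cells in G2 and mitosis and less RNA per cell cannot be told apart.

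Before normalization the median intensity of an array was 552 and 483 in treated PLC5, 495 and 415 in control PLC5, 313 and 341 in treated HepG2 and 239 and 226 in control HepG2. Quantile normalization removed these differences. The log2 values of 2 arrays of a group then correlated at 0.984 to 0.989 over all probes. Treated and control arrays of the same line correlated at 0.978 to 0.987, a range that overlaps the first. Of the deposited values, 6.99% were at or below 1 on the first HepG2 control and 6.35% on the second PLC5 control. On the other arrays the share was at most 1.27%. The number of arrays limits the precision. Of 12 hepatocyte markers 11 were measured and none was under 64 in all groups. Between the controls 9 of them were called lower in PLC5 and 2, the fibrinogen genes FGA and FGB, higher. Of all genes, 31.6% were called lower in this comparison and 26.8% higher. ALB and AHSG were lowest in PLC5, ALB at 667 in treated and 746 in control PLC5 cells, against 180846 in treated and 145704 in control HepG2 cells, and AHSG at 116 in treated and 103 in control PLC5 cells, against 68694 in treated and 71797 in control HepG2 cells. FGB ran the other way, at 62916 in treated and 84369 in control PLC5 cells, against 15098 in treated and 19887 in control HepG2 cells, and APOA2, APOB, SERPINA1 and TF were bright in PLC5 too, between 50562 and 130473.

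In PLC5 the mitosis genes lay lower with GSK343 almost throughout, by small amounts. Of the 44 log2 fold changes (treated over control), 41 were below 0, against 50.8% of all genes, and their median was -0.33 against -0.01 for all genes. Limma called 1 member, the proliferation marker MKI67, which fell by 0.80 on the log2 scale (adjusted p = 0.0292). It called 0.235% of all genes lower and 0.834% higher at an adjusted p under 0.05, the threshold of every call here. At an unadjusted p under 0.05, 28 members were lower and 0 higher, against 8.2% and 7.88% of all genes. In 35 members both treated PLC5 arrays lay below both controls, which held for 22.8% of all genes, and in 2 members (PTTG1 and INCENP) both lay above, as in 22.8%.

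In HepG2 the members lay on both sides of 0. Of the 44 log2 fold changes 26 were below 0, against 51.2% of all genes, and the median was -0.06 against -0.01. This median became 0.02 with the median of a gene's probes. With arrays centred on their median it was -0.18, where the median of all probes was 0.0065. Without normalization it was 0.31, where the median of all probes was 0.50. CDC25C rose and CENPE and ECT2 fell, 1 member higher and 2 lower, against 5.35% of all genes called higher and 3.45% called lower. At an unadjusted p under 0.05, 3 members were higher and 5 lower, against 14.4% and 13.7% of all genes. The HepG2 arrays did not overlap in 17 members that were lower and 13 that were higher, against 30.9% and 29.2% of all genes.

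Over both lines, 8 members fell on average and 0 rose, against 3.08% of all genes called lower and 4.2% called higher. The 8 were MKI67, CENPE, PLK1, TPX2, KIF23, CENPF, ECT2 and TOP2A. The mean effect was below 0 in 38 of 44 members, against 50.6% of all genes, with a median of -0.18 against -0.0041 for all genes, and 0.01 without normalization, where the median of all probes was 0.32. In 15 members the treated arrays lay below the controls in both lines, against 9.74% of all genes, and in 0 members above in both, against 8.75%. The mean rests on the same arrays as the 2 lines' own effects.

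**Figure D1:**
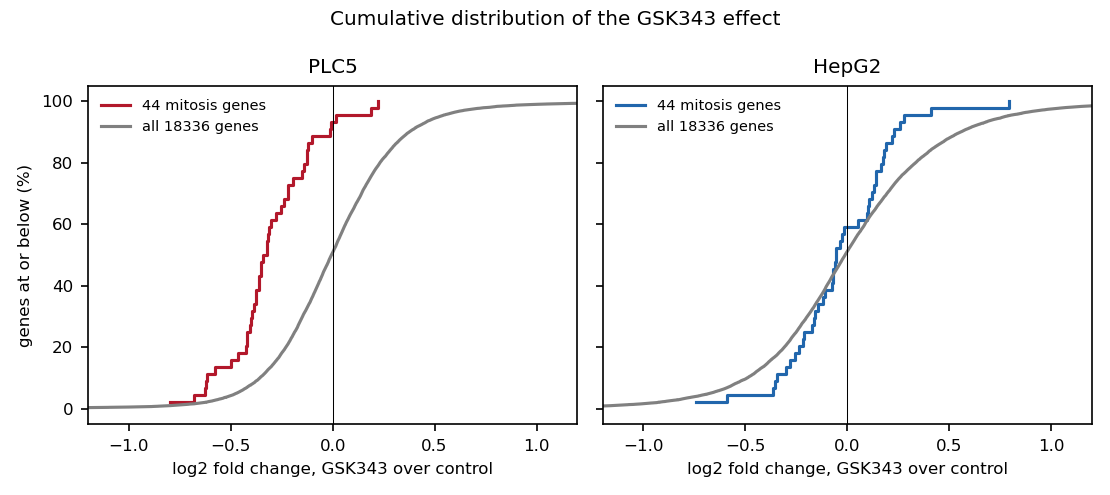
Cumulative share of genes (%) at or below each log2 fold change of GSK343 over control, in PLC5 (left) and HepG2 (right), for the 44 mitosis genes (coloured steps) and all 18336 genes (grey). The step line lies left of the grey line in PLC5, with medians of -0.33 and -0.01, and close to it in HepG2, with medians of -0.06 and -0.01.

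**Figure D2:**
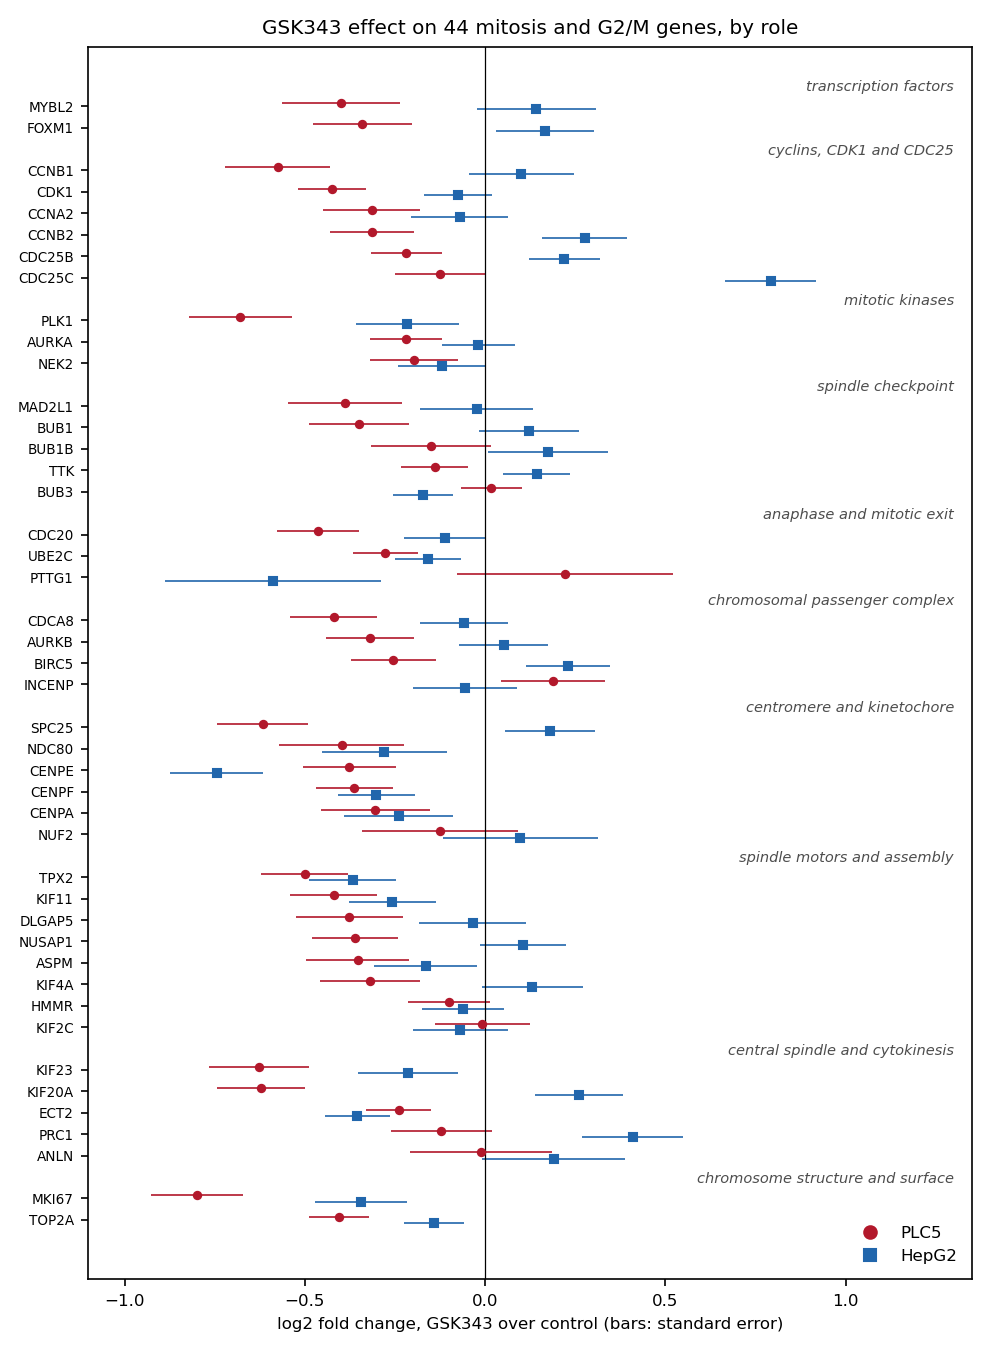
Log2 fold change of GSK343 over control for each of the 44 genes, grouped by role, in PLC5 (red circles) and HepG2 (blue squares), with standard errors from the limma fit as bars. In PLC5, 41 of 44 points lie left of 0 and in HepG2 26 of 44. MKI67 lies lowest in PLC5 and CDC25C highest in HepG2.

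Genes transcribed late in the cell cycle often carry a CHR element (TTTGAA or TTTAAA), which the MuvB core binds. They also often carry CCAAT boxes, which NF-Y binds. RefSeq promoter windows of build GRCh38.p14, 250 bases before to 50 after a start site, were found for 37 of the 44 members, 47 windows in all. AURKA, BIRC5, BUB3, FOXM1, TPX2, TTK and UBE2C had no match. The 4 sequences below belong to the members with a window whose mean effect over both lines was largest. They are written 5′ to 3′ on the gene's strand, with capitals for CCAAT or its reverse complement ATTGG, for TTTGAA or its reverse complement TTCAAA, and for TTTAAA, which is its own reverse complement.
The MKI67 window is chr10:128126374-128126673 on the minus strand, the CENPE window chr4:103198294-103198593 on the minus strand, the PLK1 window chr16:23678639-23678938 on the plus strand and the KIF23 window chr15:69414099-69414398 on the plus strand.
MKI67: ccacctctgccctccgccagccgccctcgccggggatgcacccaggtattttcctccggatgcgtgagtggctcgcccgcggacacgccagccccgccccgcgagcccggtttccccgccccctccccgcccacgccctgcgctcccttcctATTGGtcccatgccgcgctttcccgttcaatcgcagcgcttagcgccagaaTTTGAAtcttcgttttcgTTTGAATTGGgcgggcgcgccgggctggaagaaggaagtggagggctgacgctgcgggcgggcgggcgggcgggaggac
CENPE: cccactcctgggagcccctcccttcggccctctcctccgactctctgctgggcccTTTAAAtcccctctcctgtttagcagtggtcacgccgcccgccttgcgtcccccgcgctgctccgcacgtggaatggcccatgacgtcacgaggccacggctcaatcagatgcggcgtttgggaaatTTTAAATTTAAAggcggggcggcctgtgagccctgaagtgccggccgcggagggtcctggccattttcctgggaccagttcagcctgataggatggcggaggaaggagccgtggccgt
PLK1: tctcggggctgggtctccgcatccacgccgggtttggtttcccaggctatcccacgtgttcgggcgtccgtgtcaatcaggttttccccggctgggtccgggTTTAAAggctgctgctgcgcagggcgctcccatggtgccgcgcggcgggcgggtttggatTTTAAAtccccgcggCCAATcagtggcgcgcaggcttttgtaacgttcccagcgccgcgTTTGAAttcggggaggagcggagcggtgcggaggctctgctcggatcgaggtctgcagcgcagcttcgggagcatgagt
KIF23: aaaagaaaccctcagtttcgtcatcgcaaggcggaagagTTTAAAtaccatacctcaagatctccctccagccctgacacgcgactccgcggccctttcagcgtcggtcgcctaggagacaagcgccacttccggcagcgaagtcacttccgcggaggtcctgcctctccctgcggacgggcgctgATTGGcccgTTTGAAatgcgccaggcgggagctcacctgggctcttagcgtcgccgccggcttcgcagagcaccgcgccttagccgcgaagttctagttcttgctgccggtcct

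Positions are counted from the start site, with negative numbers before it. In the MKI67 window TTTGAA begins at -47 and -29, and the later one shares its last base with an inverted CCAAT box. The CENPE window has TTTAAA at -195, -68 and -62, the last 2 joined, and no CCAAT box in these letters. In the PLK1 window TTTAAA begins at -148 and -88, CCAAT at -73 and TTTGAA at -29. In the KIF23 window TTTAAA begins at -211, the inverted CCAAT box at -64 and TTTGAA at -55. Over all members' windows, 35 of 47 (74.5%) held a CCAAT box on either strand, against 34.6% of 35116 windows of the same length. TTTGAA stood in 61.7% of the members' windows against 15.2%, and TTTAAA in 31.9% against 12.2%. Both a CCAAT box and at least 1 CHR were found in 59.6% against 9.27%. These matches describe letters and say nothing of which factor bound in these cells.

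MKI67 encodes Ki-67, which coats mitotic chromosomes and keeps them apart. Its probe read 5278 and 6356 in treated PLC5 cells, against 9380 and 10823 in control PLC5 cells, and 9331 and 10092 in treated HepG2 cells, against 12226 and 12427 in control HepG2 cells. The treated arrays lay below the controls in both lines, without overlap. The log2 fold change was -0.80 ± 0.13 in PLC5 (SE) and -0.35 ± 0.13 in HepG2 (adjusted p = 0.126), and 0.01 in HepG2 without normalization. Over both lines MKI67 fell by 0.57 (adjusted p = 0.0112). The PLC5 call held without the second treated PLC5 array (adjusted p = 0.0478) and was lost without any other single array, at 0.0657 to 0.150. The call over both lines was lost only without the first treated HepG2 array (0.0505).

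TOP2A, the topoisomerase that untangles sister chromatids, gave 45296 and 47443 in treated PLC5 cells, against 59961 and 62895 in control PLC5 cells. In HepG2 its levels were 71490 and 74931 in treated HepG2 and 80177 and 81362 in control HepG2. Again no treated array reached a control of its line. The change was -0.41 ± 0.08 in PLC5 (adjusted p = 0.0718) and -0.14 ± 0.08 in HepG2 (adjusted p = 0.302), and over both lines TOP2A fell by 0.27 (adjusted p = 0.0307).

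Among the kinases, PLK1, which drives entry into mitosis and centrosome maturation, read 1954 and 1979 in treated PLC5 cells, against 2815 and 3524 in control PLC5 cells. Its HepG2 arrays read 11164 and 9199 in treated HepG2 and 12008 and 11536 in control HepG2. Both lines were lower with GSK343 without overlap. The log2 fold change was -0.68 ± 0.14 in PLC5 (adjusted p = 0.0787) and -0.22 ± 0.14 in HepG2 (adjusted p = 0.364), and over both lines PLK1 fell by 0.45 (adjusted p = 0.0369). AURKA, which builds the spindle poles, stood at 61935 and 53836 in treated PLC5 and 66589 and 67837 in control PLC5, and at 46606 and 48225 in treated HepG2 and 45536 and 50654 in control HepG2. Only the PLC5 arrays of AURKA were apart, and its changes of -0.22 in PLC5 and -0.02 in HepG2 were not called. NEK2, a centrosome kinase, stood at 10366 and 9873 in treated PLC5 and 11030 and 12187 in control PLC5, and at 5003 and 5466 in treated HepG2 and 6168 and 5227 in control HepG2, with changes of -0.20 and -0.12. Its other probes gave -0.18 and -0.68 in PLC5 and 0.37 and 0.05 in HepG2, so the HepG2 sign of NEK2 depends on the probe.

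Both transcription factors, which drive late cell cycle genes, were below 0 in PLC5 and above 0 in HepG2. FOXM1 read 3766 and 2947 in treated PLC5 cells, against 4069 and 4373 in control PLC5 cells, and 3032 and 3076 in treated HepG2 cells, against 2654 and 2793 in control HepG2 cells. It was lower in treated PLC5 and higher in treated HepG2, each without overlap, with log2 fold changes of -0.34 ± 0.14 and 0.17 ± 0.14 (adjusted p = 0.304 and 0.469). MYBL2 changed by -0.40 in PLC5 and 0.14 in HepG2, and only its PLC5 arrays were apart.

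The 6 genes of cyclins, CDK1 and the CDC25 phosphatases were all below 0 in PLC5 with the arrays apart, by -0.12 to -0.58, and none was called. CCNB1, the mitotic cyclin B1, read 9165 and 8227 in treated PLC5 cells, against 14458 and 11574 in control PLC5 cells, and 19381 and 16404 in treated HepG2 and 17880 and 15463 in control HepG2. The PLC5 arrays were apart and the HepG2 arrays overlapped, with changes of -0.58 ± 0.15 (adjusted p = 0.122) and 0.10 ± 0.15. CCNB2, its close relative, gave 6092 and 5689 in treated PLC5 and 7314 and 7323 in control PLC5, and 14114 and 12510 in treated HepG2 and 10216 and 11796 in control HepG2. It was lower in treated PLC5 and higher in treated HepG2 without overlap, at -0.31 and 0.28, and not called. CCNA2, the cyclin of S phase and G2, read 10541 and 9129 in treated PLC5 and 11244 and 13242 in control PLC5, and 18785 and 17383 in treated HepG2 and 17446 and 20656 in control HepG2. Its HepG2 arrays overlapped, and the changes were -0.31 and -0.07. Its dimmer probe gave 0.19 in HepG2, so this sign depends on the probe.

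CDK1, the kinase that starts mitosis, has 2 probes. The brighter one read 14168 and 14054 in treated PLC5 cells, against 18828 and 19056 in control PLC5 cells, and 14744 and 14780 in treated HepG2 and 14886 and 16257 in control HepG2, lower with GSK343 in both lines without overlap. Its changes were -0.42 ± 0.09 in PLC5 (adjusted p = 0.092) and -0.08 ± 0.09 in HepG2. The dimmer probe read 358 and 392 in treated PLC5 and 655 and 741 in control PLC5, and 440 and 471 in treated HepG2 and 582 and 642 in control HepG2. That probe was called in PLC5, at -0.89 ± 0.13 (adjusted p = 0.0239), and over both lines, at -0.66 (adjusted p = 0.00782), so the call for CDK1 depends on the probe.

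CDC25C, the phosphatase that switches on CDK1, was the 1 member called higher in a line. It read 3521 and 3841 in treated PLC5 and 3885 and 4139 in control PLC5, and 18663 and 15160 in treated HepG2 cells, against 9547 and 9895 in control HepG2 cells. Treated PLC5 cells lay slightly below their controls, while treated HepG2 cells were far above theirs, without overlap in either line. The rise in HepG2 was 0.79 ± 0.13 on the log2 scale, 1.73-fold (adjusted p = 0.0109), and the PLC5 change was -0.12 ± 0.13. The HepG2 call was lost when the first treated HepG2 array (adjusted p = 0.0688) or the second HepG2 control (0.0563) was left out. CDC25B, which acts on the same target, stood at -0.22 in PLC5 and 0.22 in HepG2, each with the arrays apart and not called.

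The spindle checkpoint holds cells in mitosis until every kinetochore is attached. Of its 5 members, 4 were below 0 in PLC5 and 2 in HepG2, and none was called. BUB1, a checkpoint kinase at the kinetochore, read 13994 and 10498 in treated PLC5 and 15219 and 15677 in control PLC5, and 12766 and 12461 in treated HepG2 and 12137 and 11070 in control HepG2. It was lower in treated PLC5 and higher in treated HepG2 without overlap, at -0.35 and 0.12. TTK, the kinase MPS1 that starts checkpoint signalling, read 23418 and 21931 in treated PLC5 and 24823 and 25100 in control PLC5, and 15686 and 14852 in treated HepG2 and 13838 and 13817 in control HepG2. Its arrays were apart in the same 2 directions, at -0.14 and 0.14. BUB1B, the checkpoint protein BUBR1, read 1775 and 1414 in treated PLC5 and 1546 and 2000 in control PLC5, and 1139 and 1066 in treated HepG2 and 1023 and 933 in control HepG2, and its PLC5 arrays overlapped. MAD2L1, which holds CDC20 inactive, changed by -0.39 in PLC5 and -0.02 in HepG2. BUB3, a partner of BUB1 and BUB1B, gave 0.02 and -0.17, but its dimmer probe was called in HepG2 at 0.60 ± 0.13 (adjusted p = 0.0312), with 4056 and 4428 in treated and 3074 and 2541 in control cells.

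CDC20 and UBE2C switch on the anaphase-promoting complex and pass ubiquitin to its targets. CDC20 changed by -0.46 in PLC5 and -0.11 in HepG2, and UBE2C by -0.28 and -0.16. Both were apart and lower in both lines and neither was called, though the dimmest of 3 probes of UBE2C fell over both lines, at -0.52 (adjusted p = 0.0184). Another probe of UBE2C had the opposite sign in HepG2, at 0.11. PTTG1, securin, had values of 27 to 55 on all arrays and is not read further.

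The chromosomal passenger complex corrects attachments and steers cytokinesis. AURKB, its kinase, stood at -0.32 in PLC5 and 0.05 in HepG2. BIRC5, survivin, read 16521 and 16164 in treated PLC5 and 20888 and 18205 in control PLC5, and 33003 and 27840 in treated HepG2 and 26718 and 25014 in control HepG2. It was lower in treated PLC5 and higher in treated HepG2 without overlap, at -0.25 and 0.23, and not called. The dimmest of its 3 probes had the opposite sign in HepG2, at -0.33, and was called lower over both lines, at -0.48 (adjusted p = 0.0179). CDCA8, borealin, read 3778 and 3192 in treated PLC5 and 4506 and 4793 in control PLC5, and 5414 and 5924 in treated HepG2 and 5841 and 5951 in control HepG2, and only its PLC5 arrays were apart (-0.42, adjusted p = 0.162). INCENP, the scaffold, read 150 and 161 in treated PLC5 and 137 and 137 in control PLC5, and 203 and 208 in treated HepG2 and 226 and 202 in control HepG2. It was the 1 member above the dim limit that was higher in treated PLC5 without overlap, at 0.19, and it was not called.

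Centromere and kinetochore genes had a median of -0.37 in PLC5 and -0.26 in HepG2, and all 6 were below 0 over both lines. CENPE, the kinetochore motor that carries chromosomes to the spindle equator, read 9109 and 10674 in treated PLC5 cells, against 11641 and 14081 in control PLC5 cells. In HepG2 it read 7557 and 7725 in treated HepG2 and 13346 and 12280 in control HepG2. Treated arrays were lower in both lines without overlap. CENPE fell by 0.74 in HepG2 (SE 0.13, adjusted p = 0.0146) and by 0.56 over both lines (adjusted p = 0.0126), and its PLC5 change was -0.38 ± 0.13 (adjusted p = 0.231). Leaving out any 1 of the 4 HepG2 arrays ended the HepG2 call (up to 0.0775), and leaving out the first treated HepG2 array ended the call over both lines (0.0527).

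CENPF, a kinetochore protein that accumulates in G2, read 11539 and 11985 in treated PLC5 cells, against 14022 and 16302 in control PLC5 cells, and 11467 and 12074 in treated HepG2 and 14432 and 14578 in control HepG2. The 2 lines had nearly the same values, with treated arrays lower in both. The changes were -0.36 ± 0.11 and -0.30 ± 0.11, and over both lines CENPF fell by 0.33 (adjusted p = 0.038). SPC25, part of the NDC80 complex that grips microtubules, read 11927 and 13025 in treated PLC5 cells, against 19627 and 18607 in control PLC5 cells, and 25873 and 20471 in treated HepG2 and 20784 and 19860 in control HepG2. It was apart in PLC5, at -0.62 ± 0.13 (adjusted p = 0.0718), and overlapped in HepG2, at 0.18 ± 0.13. CENPA, the histone variant of centromeres, read 19030 and 19362 in treated PLC5 and 28146 and 19956 in control PLC5. In HepG2 this probe read 31878 and 29225 in treated HepG2 and 34695 and 37413 in control HepG2. It was lower in both lines and not called. The dimmer probe of CENPA gave -0.24 in PLC5 and -0.00011 in HepG2, with overlap in both lines, so the HepG2 change depends on the probe. NDC80 and NUF2, further parts of the complex of SPC25, gave -0.40 and -0.12 in PLC5 and -0.28 and 0.10 in HepG2.

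**Figure D3:**
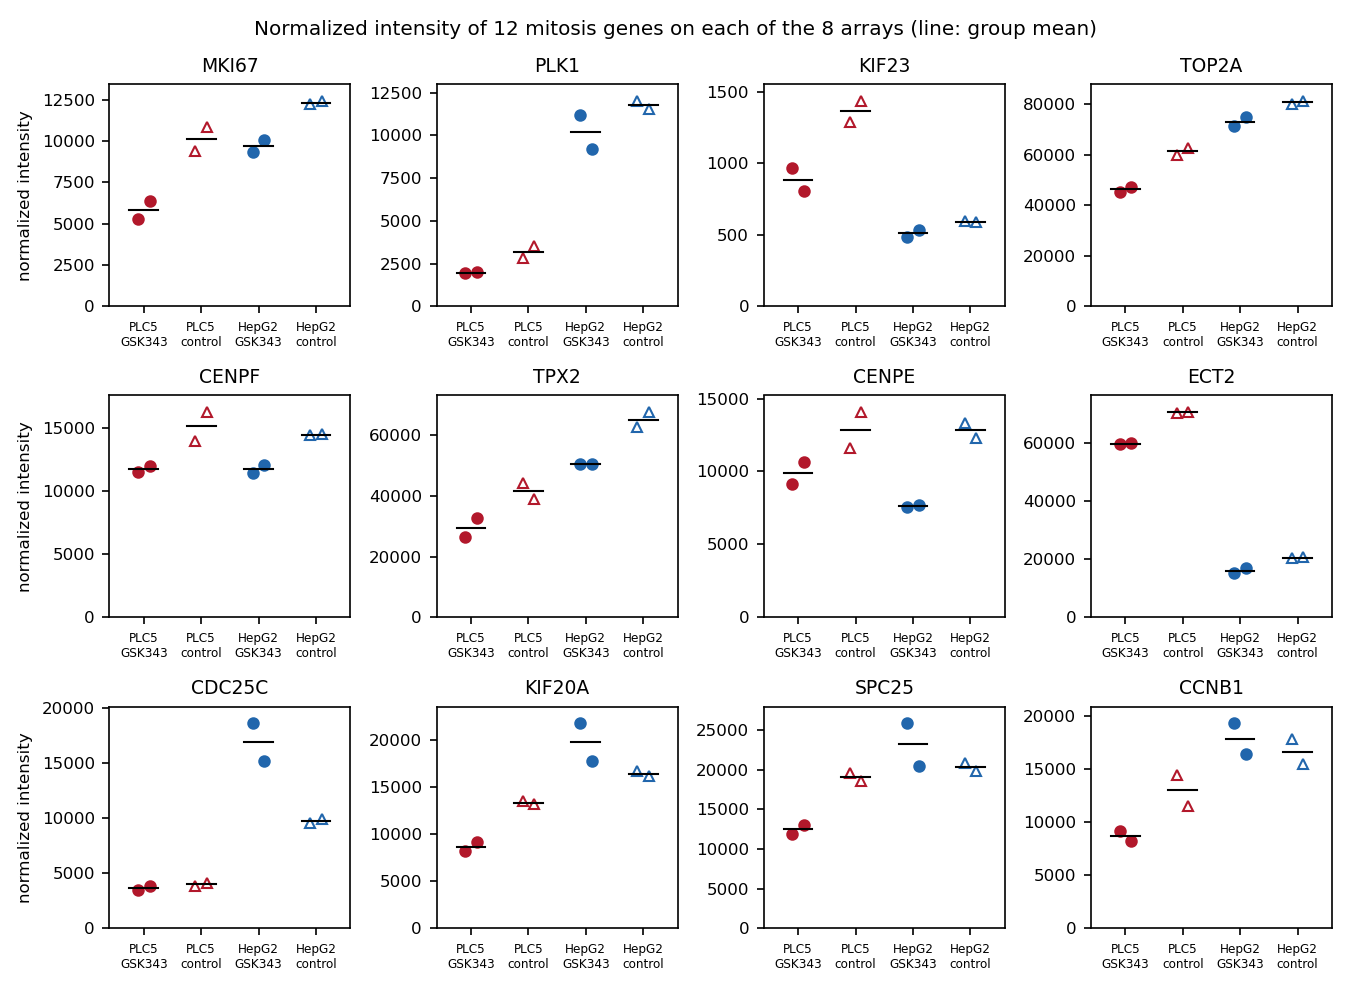
Normalized intensity of 12 of the genes on each array, with treated PLC5, control PLC5, treated HepG2 and control HepG2 from left to right. Points are arrays, filled for GSK343 and open for controls, and lines are group means. In the first 8 panels the treated points lie below the controls in both lines. In the last row the PLC5 points of CDC25C, KIF20A, SPC25 and CCNB1 are lower with GSK343 while their HepG2 means are higher.

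The 8 spindle motors and assembly factors were all below 0 in PLC5 and over both lines. TPX2, which activates AURKA on the spindle, read 26314 and 32646 in treated PLC5 cells, against 44035 and 39008 in control PLC5 cells. HepG2 gave 50295 and 50530 in treated HepG2 and 62535 and 67578 in control HepG2. There was no overlap in either line. The changes were -0.50 ± 0.12 (adjusted p = 0.109) and -0.37 ± 0.12 (adjusted p = 0.0949), and over both lines TPX2 fell by 0.43 (adjusted p = 0.024). KIF11, the motor Eg5 that pushes spindle poles apart, read 6572 and 7099 in treated PLC5 and 8310 and 10055 in control PLC5, and 7135 and 7220 in treated HepG2 and 8330 and 8839 in control HepG2. It was lower in both lines without overlap, and its mean change of -0.34 missed the threshold (adjusted p = 0.0517).

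KIF4A, a chromosome motor, read 2278 and 1808 in treated PLC5 and 2676 and 2398 in control PLC5, and 1320 and 1356 in treated HepG2 and 1228 and 1215 in control HepG2, lower in treated PLC5 and higher in treated HepG2, at -0.32 and 0.13. DLGAP5, a spindle factor, read 10195 and 7477 in treated PLC5 and 11900 and 10797 in control PLC5, and 7097 and 7318 in treated HepG2 and 7522 and 7246 in control HepG2, and only PLC5 was apart (-0.38). ASPM, of the spindle poles, read 5783 and 5876 in treated PLC5 and 8560 and 6478 in control PLC5, and 3214 and 3518 in treated HepG2 and 3864 and 3675 in control HepG2, lower in both lines, at -0.35 and -0.16. None of these 3 was called. NUSAP1, HMMR and KIF2C, which bind or take apart microtubules, ranged between -0.36 and -0.01 in PLC5 and between -0.07 and 0.10 in HepG2.

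Of the 5 genes of the central spindle and cytokinesis, 2 had their largest changes in PLC5. KIF23, the motor of the centralspindlin complex, read 967 and 802 in treated PLC5 cells, against 1290 and 1434 in control PLC5 cells, and 487 and 531 in treated HepG2 and 593 and 586 in control HepG2. It was lower in both lines without overlap, at -0.63 ± 0.14 (adjusted p = 0.0886) and -0.21 ± 0.14, and over both lines KIF23 fell by 0.42 (adjusted p = 0.0406). KIF20A, a motor that brings the passenger complex to the midzone, read 8203 and 9129 in treated PLC5 cells, against 13453 and 13197 in control PLC5 cells, and 21787 and 17717 in treated HepG2 and 16688 and 16146 in control HepG2. Treated PLC5 lay below and treated HepG2 above its controls, at -0.62 ± 0.12 (adjusted p = 0.0638) and 0.26 ± 0.12 (adjusted p = 0.208).

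ECT2, which activates RHOA for the contractile ring, read 59518 and 59818 in treated PLC5 cells, against 70286 and 70614 in control PLC5 cells. In HepG2 the levels were 15202 and 16840 in treated HepG2 and 20357 and 20570 in control HepG2. Treated arrays were lower in both lines. ECT2 fell by 0.35 in HepG2 (adjusted p = 0.0476) and by 0.30 over both lines (adjusted p = 0.0312), and its PLC5 change was -0.24. Both calls were lost when any 1 of the 8 arrays was left out, at adjusted p up to 0.201 and 0.101, and the other probe of ECT2 was called in neither comparison (-0.29 in HepG2, adjusted p = 0.394). PRC1, which bundles midzone microtubules, read 12346 and 9311 in treated PLC5 and 11479 and 11849 in control PLC5, and 9522 and 9189 in treated HepG2 and 7374 and 6732 in control HepG2. It was higher in treated HepG2 without overlap, at 0.41 ± 0.14 (adjusted p = 0.105), and overlapped in PLC5. ANLN, anillin of the contractile ring, read 20311 and 17191 in treated PLC5 and 16269 and 21808 in control PLC5, and 6492 and 8922 in treated HepG2 and 7398 and 6020 in control HepG2, with overlap in both lines.

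The remaining 5 calls over both lines were also lost in most fits that left out 1 array. TPX2 stayed called only without the second PLC5 control or the second treated PLC5 array, PLK1 and CENPF only without the first PLC5 control, and TOP2A only without the second treated PLC5 array. KIF23 was called in 0 of the 8 fits that left out 1 array, and over all 5 genes the adjusted p went up to 0.119. Their mean effects stayed below 0 in all of these fits, between -0.53 and -0.25.

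The summed levels of 3 marker lists of other cell types also differed with GSK343, without overlap of the arrays in either line. Such separation is common for single genes. Of all genes, 22.8% were apart and lower in PLC5 and 22.8% were apart and higher. In HepG2 these shares were 30.9% and 29.2%. No such share was worked out for sums of several genes. The sum of 5 measured of 6 leukocyte markers was 6119 to 6276 in treated and 6377 to 7104 in control PLC5, and 6737 to 7331 in treated and 10397 to 12253 in control HepG2. Most of it was LYZ, with PTPRC and CD3E under 64 in all groups. The sum of 6 fibroblast markers was higher in treated PLC5 (2529 to 2561, against 1926 to 2243 in control PLC5) and lower in treated HepG2 (2747 to 2877, against 3880 to 4226 in control HepG2). Most of it was COL1A1 in PLC5 and COL1A1 with PDGFRB in HepG2, and DCN was under 64 in all groups. The sum of 6 endothelial markers was higher in both lines, at 1521 to 1719 in treated and 1366 to 1443 in control PLC5, and at 2087 to 2095 in treated and 1598 to 1879 in control HepG2. None of these markers was at 0, and their part in the effects of GSK343 on the mitosis genes was not tested.

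The effect of GSK343 was more negative in PLC5 than in HepG2 in 38 of 44 members (PLC5 minus HepG2), against 50.4% of all genes, with a median difference of -0.33. Limma called 0 members for this difference, against 0.84% of all genes called in either direction. At an unadjusted p under 0.05, 16 members were lower in PLC5 and 0 higher, against 9.82% and 8.67% of all genes. The largest differences were -0.92 ± 0.18 for CDC25C and -0.88 ± 0.17 for KIF20A (adjusted p = 0.0647 for both) and -0.80 ± 0.18 for SPC25 (adjusted p = 0.086). CDC25C and KIF20A passed when the dimmest 50% of probes was left out, with robust eBayes, with the median of probes, and, with SPC25, without normalization. In 11 members the arrays did not overlap and lay lower in treated PLC5 but higher in treated HepG2, against 4.9% of all genes. These were FOXM1, CCNB2, CDC25B, CDC25C, TTK, BUB1, AURKB, BIRC5, KIF4A, NUSAP1 and KIF20A. For AURKB the HepG2 gap was very small, with the lower treated array at 7994 and the higher control at 7989. The dimmest probe of BIRC5 had the opposite sign in HepG2, at -0.33.

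The lines also differed without drug. Between control PLC5 and control HepG2 (PLC5 minus HepG2), limma called 14 members higher and 10 lower, against 26.8% and 31.6% of all genes, and the median over the members was 0.01. All 4 called genes of the central spindle and cytokinesis were higher in PLC5, with ECT2 at 1.78 ± 0.09 (3.44-fold), ANLN at 1.50 ± 0.20, KIF23 at 1.21 ± 0.14 and PRC1 at 0.73 ± 0.14. KIF4A (1.05), NEK2 (1.03), ASPM (0.98), TTK (0.85), BUB1B (0.85), FOXM1 (0.63), DLGAP5 (0.62), AURKA (0.48), BUB1 (0.41) and CDK1 (0.28) were higher as well. PLK1 was lower in PLC5 by the largest amount, -1.90 ± 0.14, followed by CDC25C at -1.28 ± 0.13.

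TPX2, INCENP, CCNA2, CENPA, CCNB2, BIRC5, TOP2A and CDCA8 were lower in control PLC5, by -0.65 to -0.34, but all 8 turned above 0 without normalization, where all probes shifted by a median of 0.86. PLK1 and CDC25C stayed below 0 there. CCNA2 has a second probe with the opposite call, 0.64 (adjusted p = 0.0227), so its direction between the lines is not settled. Other probes also were not called for BIRC5 (0.07 and -0.21, adjusted p = 0.671 and 0.178), CENPA (-0.30, 0.122) and CDK1 (0.19, 0.267). BUB3, not called at -0.12, has a dimmer probe that was called at 0.75 (adjusted p = 0.00123). None of the 14 higher calls turned below 0 under another scaling, and AURKA, BUB1 and CDK1 were not called with arrays centred on their median. Leaving out any 1 control array or treated HepG2 array ended the calls of CDK1 and CDCA8 (adjusted p up to 0.204 and 0.147), and leaving out any 1 control array ended that of BUB1 (up to 0.159). BIRC5 lost its call without the first HepG2 control or the second PLC5 control (up to 0.0921), and CENPA without the second HepG2 control (0.0517). This comparison shares its control arrays with the drug effects of both lines.

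**Figure D4:**
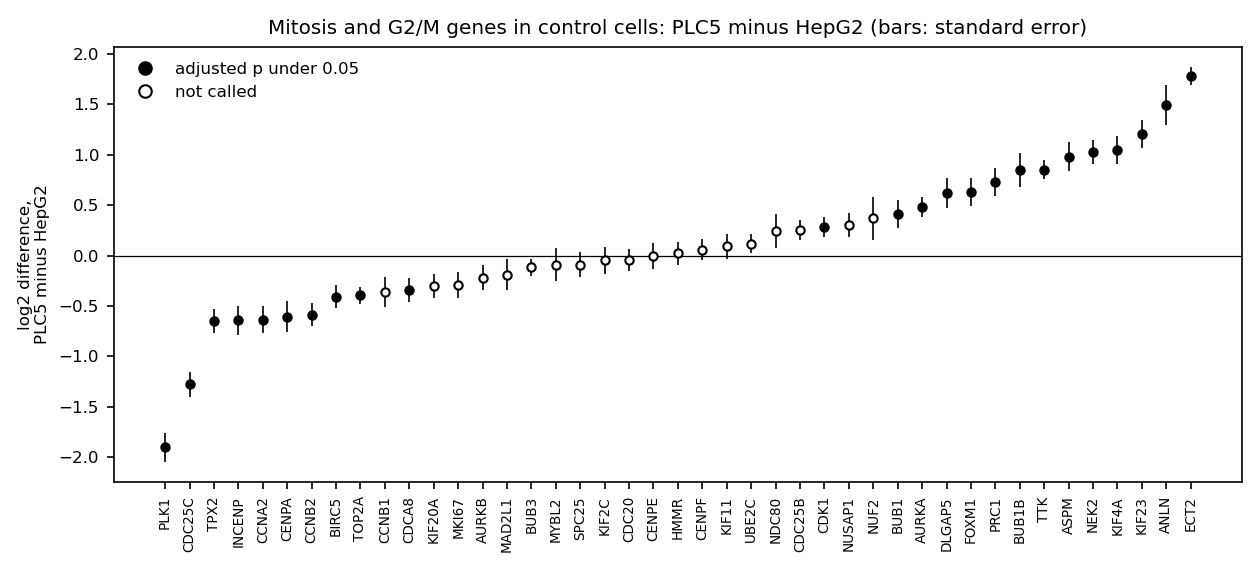
Log2 difference between control PLC5 and control HepG2 cells (PLC5 minus HepG2) for the 43 members that were not dim, in order, with standard errors as bars. Filled points have an adjusted p under 0.05. ECT2 lies highest at 1.78 and PLK1 lowest at -1.90, and the 8 filled points between -0.65 and -0.34 turned above 0 without normalization.

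Genes of the same processes outside the 44 were read from 6 further lists of 109 genes, all measured. In PLC5 their median was -0.21 and 91 of 109 were below 0, with 0 called higher and 1 lower, the spindle gene TACC3 (-0.71 ± 0.11), against 0.834% and 0.235% of all genes. In HepG2 the median was -0.07, with 5 called higher and 4 lower, against 5.35% and 3.45% of all genes, so the counts were near the background. KIF18A, a motor that damps chromosome movement, rose by 1.50 in HepG2, and CKAP2 and the kinetochore genes CENPI and CENPU rose by 0.71, 0.68 and 0.67. The ubiquitin ligase gene G2E3 rose by 0.72. SMC2, a core subunit of condensin, fell by 0.65 in HepG2, CENPK by 0.51, ARHGAP11A by 0.57 and the condensin gene NCAPH by 0.45.

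Over both lines 1 of the 109 rose on average (KIF18A) and 10 fell, against 4.2% of all genes called higher and 3.08% called lower. The rise of KIF18A was in HepG2 only, and its PLC5 arrays overlapped. Lowest were SMC2 at -0.58, KIF18B at -0.56, ARHGAP11A at -0.54 and CENPK at -0.53. All 8 condensin genes were below 0 in PLC5, with a median of -0.38. The 17 genes of subunits and regulators of the anaphase-promoting complex had a median of -0.14 in PLC5 and 0.0027 in HepG2. For comparison, 44 measured genes of DNA replication and the G1/S step were all below 0 in PLC5, with a median of -0.36, 2 of them called (E2F8 at -0.82 and PCNA at -0.55). Their HepG2 median was -0.02, and over both lines 11 of the 44 fell and 0 rose, against the same 3.08% and 4.2% of all genes.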

How the data were processed

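The deposited values were intensity values, 1 per probe and array, for 31741 probes on 8 one-colour arrays. Per the labels' protocols, total RNA was amplified linearly to amino-allyl RNA and coupled to Cy5. The scanner software and any background correction or flagging are not described in the labels. Quantile normalization put the 8 arrays on 1 scale, values under 1 were set to 1, and log2 was taken. A limma fit (version 3.58.1 under R 4.3.3) estimated the 4 group means, with eBayes and an intensity trend (4 residual and 4.75 prior degrees of freedom). Two-sided p-values were adjusted over all probes by the Benjamini-Hochberg method. The fit was tested on simulated data.

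Of the probes, 977 had several symbols and 6024 none, and neither kind was named. Of the single symbols, 22722 were current, 1948 were updated through the RefSeq gene table and 70 were kept.

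Every member may be named. Array values are given for members called in any comparison or among the 6 largest changes in either line or over both lines. Apart from the cell type markers, genes outside the list are named only where called with GSK343, up to 4 per list in each comparison. The members, lists and rules were chosen with earlier results of these data known. The alternatives were other normalizations, floors, filters on dim probes, variance models, arrays in the fit, probes per gene, a replicate block and each array left out. A fit with crossed replicate numbers was added after seeing the data.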

Additional observations from a re-analysis of the deposited data

Results flagged for a closer look

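For 2 genes outside the list of 44, the test of the difference between the lines' effects of GSK343 passed. KIF18A, a kinesin that damps chromosome movement at the spindle equator, read 678 and 575 in treated PLC5 and 672 and 602 in control PLC5, and 242 and 277 in treated HepG2 and 104 and 81.1 in control HepG2. The PLC5 arrays overlapped and the HepG2 arrays did not. Its difference (PLC5 minus HepG2) was -1.52 ± 0.24 (limma adjusted p = 0.0463), and it was called under 7 of 19 alternatives, with adjusted p of 0.0276 to 0.150. When 1 array at a time was left out, it stayed called only without the first HepG2 control.

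G2E3, a ubiquitin ligase gene named for its peak in G2, read 523 and 442 in treated PLC5 and 633 and 601 in control PLC5, and 1237 and 1131 in treated HepG2 and 709.9 and 724 in control HepG2. It was lower with GSK343 in PLC5 and higher in HepG2, without overlap. The difference was -1.08 ± 0.19 (limma adjusted p = 0.0487), called under 6 of 20 alternatives, with adjusted p of 0.0331 to 0.164. It was called in 0 of the 8 fits that left out 1 array.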

How the results depend on the processing

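Counts below are of members called, and medians are log2 effects over the members. Centring arrays on their median gave medians of -0.18 in HepG2, -0.49 in PLC5, -0.33 over both lines and -0.12 between the controls, with 7 members called in PLC5 and 17 over both lines. Without normalization the medians were 0.31 in HepG2, 0.0068 over both lines, -0.66 for the difference and 0.85 between the controls. It left 11 calls in HepG2 (0 of them lower), 0 in PLC5, 3 over both lines and 3 for the difference. Quantile normalization within each line gave a median of 0.66 between the controls. Leaving out the dimmest 50% of probes gave 5 calls in PLC5 and 2 for the difference, with medians of -0.0464 in HepG2 and 0.0419 between the controls. The floor of 64 moved the HepG2 median to -0.0449. EBayes without trend left 0 calls in PLC5 and 1 over both lines, and robust eBayes gave 2 in PLC5 and 2 for the difference. With only the arrays compared in the fit, 0 members were called in PLC5. The median of a gene's probes gave 4 calls in PLC5 and 2 for the difference, with medians of 0.0210 in HepG2, -0.13 over both lines and 0.0419 between the controls.

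Leaving out 1 array at a time gave 0 to 1 calls in PLC5 with medians of -0.36 to -0.24, and 0 to 2 in HepG2 with medians of -0.0735 to -0.0148. It gave 0 to 5 calls over both lines (-0.20 to -0.13), 0 for the difference (-0.36 to -0.25) and 20 to 25 between the controls (-0.00266 to 0.0240). The lone array of a group was then assumed to vary like the others.

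Some values turned sign. MKI67 in HepG2 came to 0.013 without normalization. Between the controls without normalization, BIRC5 came to 0.34, CCNA2 to 0.13, CCNB2 to 0.26, CDCA8 to 0.59, CENPA to 0.13, INCENP to 0.18, TOP2A to 0.19 and TPX2 to 0.0070. With normalization within each line, BIRC5 came to 0.17, CCNB2 to 0.085, CDCA8 to 0.38, INCENP to 0.061 and TOP2A to 0.030. With the median of probes, BIRC5 came to 0.072 and CCNA2 to 0.0011. Dropping the normalization leaves the arrays' own brightness in the values, and causes beyond that were not tested.

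The replicate differences of the groups correlated at -0.22 to -0.0052 over the brighter 15870 probes. None of these correlations was positive, and they cannot tell whether arrays of different groups shared a batch. With the replicate number as a block, 2 members were called in HepG2, 1 in PLC5, 3 over both lines, 0 for the difference and 24 between the controls. With the HepG2 control numbers crossed, 2 were called in HepG2, 0 in PLC5, 5 over both lines, 0 for the difference and 23 between the controls.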

Other observations

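Of 44 replication and G1/S genes outside the list, 1 was called higher and 2 lower in HepG2, against 5.35% and 3.45% of all genes, so neither count stood out from the background. E2F2, a transcription factor of the G1/S step, rose by 0.64 ± 0.14 in HepG2 (limma adjusted p = 0.0325), and its PLC5 change was -0.44 ± 0.14 (0.210). The test of that difference gave -1.08 ± 0.20 (adjusted p = 0.0603) and did not pass. POLD1, the catalytic subunit of DNA polymerase delta, fell by 0.55 in HepG2 (adjusted p = 0.0496) and by 0.52 over both lines (adjusted p = 0.0227), and its PLC5 change was -0.49 (adjusted p = 0.162). RFC3, a subunit of the clamp loader, fell by 0.39 in HepG2 (adjusted p = 0.0461) and by 0.35 over both lines (adjusted p = 0.0244), and its PLC5 change was -0.31 (adjusted p = 0.191). Its dimmer probe was called in none of these (-0.22 in HepG2, adjusted p = 0.357).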
